A study of Zea mays with 4 samples.

Results

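The 22-kDa alpha-zeins are storage proteins of the maize kernel, and the 4 gene models described here are z1C1_4 (GRMZM2G044625), z1C1_8 (GRMZM2G044152), z1C1_5 (GRMZM2G045387) and z1C2, which is floury2 or fl2 (GRMZM2G397687). They were taken by identifier from 34567 genes with a value above 0 in at least 1 library. RNA had been sequenced from endosperm at 10 days after pollination in 2 libraries of a mutant titled dek and 2 libraries of wild type (WT), named A and B in each genotype. A library stood for a pool of 8 to 10 individuals. The mutant and WT pools were taken from 2 different ears that segregated for the mutation. The labels give no allele or gene for the mutant and do not say which pools shared an ear.

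Zeins are made on the rough endoplasmic reticulum of endosperm cells and are packed there into protein bodies. Alpha-zeins fill the core of these bodies, while beta- and gamma-zeins lie towards the outside, and all are poor in lysine and tryptophan. The 22-kDa genes form a family of near-identical copies and are the classic targets of Opaque2, a bZIP transcription factor of the endosperm. The floury2 locus is named for a semi-dominant mutation of a 22-kDa gene, in which the signal peptide is not cleaved and the kernel becomes soft and opaque.

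The RefSeq gene table of assembly Zm-B73-REFERENCE-NAM-5.0 lists 15 genes of the z1C subfamily, of which 8 are protein coding and the others transcribed pseudogenes. Of the 15, 14 are z1C1 genes that lie in one run interrupted by only 2 other genes, and z1C2 is separated from that run by 381 genes. In this order z1C1_4 and z1C1_5 are neighbours, and z1C1_8 follows z1C1_7. RefSeq calls z1C1_4, z1C1_8 and z1C2 protein coding and z1C1_5 a transcribed pseudogene. In all, 10 of the 15 genes matched a model with a value above 0, which are the 4 models described here and 6 others. The models were 1034 bases long for z1C1_4, 1317 for z1C1_8, 1031 for z1C1_5 and 1070 for z1C2.

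Estimated counts summed to 13119658 to 14776699 per library. At a threshold of 0.05 on the Benjamini-Hochberg adjusted p, edgeR's quasi-likelihood test on 24624 genes called 1965 higher in dek and 2178 lower. Higher genes were 47.4% of the calls, or 77.9% when libraries were scaled to total counts alone, which moved all log2 fold changes up by a median of 0.307. The calls fell to 281 higher and 465 lower without dek A and to 347 and 618 without dek B, while 1311 were lower without WT B. The 5 starchy endosperm markers sh1, sh2, bt1, bt2 and wx1 were listed in every library, with summed levels of 1166 and 1498 FPKM in dek A and B, against 10342 and 8830 FPKM in WT A and B. FPKM scales the fragments of a gene to its length and to all fragments counted in the library. The embryo markers lec1 and kn1 were at most 1.07 FPKM in dek and 2.88 FPKM in WT, and lec1 was listed at 0 in WT B, while the third, ole1, which aleurone also expresses, had 82.7 and 77.9 FPKM in dek, against 548 and 596 FPKM in WT.

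All 4 of the 22-kDa models were lower in dek, and their transcripts were close to absent there. Together they had 3.18 and 2.62 FPKM in dek A and B, against 763 and 1038 FPKM in WT A and B. They drew 49 and 40 counts in dek A and B, against 11521 and 14066 counts in WT A and B. On the TMM scale, which corrects library totals for shifts in composition, the summed dek level was 0.264% of the WT level, and its exact 95% counting interval ran from 0.212% to 0.325%. Such intervals cover counting error only. All 4 models passed the filter on low counts, and all 4 passed edgeR's test as lower, against 8.85% of all genes tested. z1C1_8 and z1C1_5 met that filter through WT alone, with at most 7 counts in a dek library. For them the filter left little room for any call but lower. Higher calls, at 7.98% of all genes tested, included 0 of the 4. No dek library reached a WT library in any of the 4, which held for 17.0% of all genes tested in that direction. In bulk endosperm, fewer cells that express a gene and less RNA per cell cannot be told apart.

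The highest of the 4 in WT was z1C1_4, described in the deposited tables as 22kD alpha zein 3. It had 1.36 and 1.16 FPKM in dek A and B, against 450 and 572 FPKM in WT A and B. In counts this was 20 and 17 in dek, against 6500 and 7461 in WT. The dek libraries lay close together and more than 2 orders of magnitude below the WT libraries. z1C1_4 fell by 8.95 ± 0.228 on the log2 scale (± SE, n = 2 per genotype; adjusted p = 0.000168 by edgeR with Benjamini-Hochberg adjustment). The SE given here and below is the fold change divided by the square root of edgeR's F statistic. At few dek counts it can be smaller than counting error. By FPKM among all genes listed, z1C1_4 ranked 21196 and 21818 in dek A and B, against 200 and 142 in WT A and B.

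The fl2 gene z1C2, described in the tables as 22kD alpha zein 1, was second in WT. It had 1.44 and 1.12 FPKM in dek A and B, against 146 and 244 FPKM in WT A and B. In counts this was 22 and 17 in dek, against 2190 and 3300 in WT. WT B stood 1.67-fold above WT A, and the dek libraries were both far below either. fl2 fell by 7.54 ± 0.356 on the log2 scale (± SE, n = 2 per genotype; adjusted p = 0.000736 by edgeR with Benjamini-Hochberg adjustment). Its rank by FPKM was 20941 in dek A and 21951 in dek B, against 714 in WT A and 442 in WT B.

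The 22-kDa gene z1C1_8, described as zein-alpha 22C2, was the least variable between the WT pools. It had 0.38 and 0.27 FPKM in dek A and B, against 101 and 113 FPKM in WT A and B. These are 7 and 5 counts in dek, against 1873 and 1892 counts in WT. z1C1_8 fell by 8.66 ± 0.208 on the log2 scale (± SE, n = 2 per genotype; adjusted p = 0.000163 by edgeR with Benjamini-Hochberg adjustment).

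The pseudogene model z1C1_5 was listed at 0 in dek A and had 0.07 FPKM in dek B, against 66.5 and 109 FPKM in WT A and B. Its only dek signal was 1 count in dek B, against 958 and 1414 counts in WT A and B. Its summed dek level was 0.032% of the WT level on the TMM scale, and counting error alone gives an exact 95% interval of 0.00081% to 0.179%. It passed edgeR's quasi-likelihood test as lower with a Benjamini-Hochberg adjusted p of 0.000862. With 1 dek count its fitted fold change depends on the prior count and is not read as a measured size. RefSeq calls this copy a pseudogene, and its WT counts were not whole numbers, so they were partly divided between genes by the authors' estimate.

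**Figure D1:**
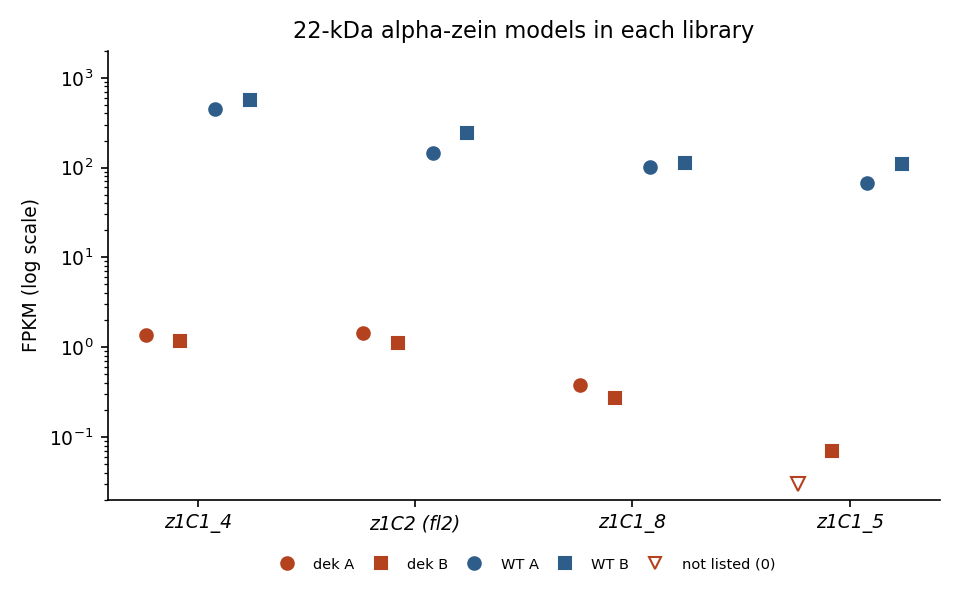
Level of the 4 22-kDa alpha-zein models (FPKM, log axis) in dek A and B and in WT A and B. Every dek point is at or below 1.44 FPKM and every WT point is at or above 66.5 FPKM. The open triangle marks z1C1_5 in dek A, which was listed at 0 and has no place on a log axis.

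In FPKM, which is per length, the dek ranges of z1C1_4 and fl2 overlapped, both lay above z1C1_8, and z1C1_8 lay above z1C1_5. The order in WT was z1C1_4 above fl2 in both libraries, fl2 above z1C1_8 in both, and z1C1_8 above z1C1_5 in both. The ranges of z1C1_8 and z1C1_5 over the WT libraries overlapped, so these neighbours did not differ beyond their spread.

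The make-up of the small dek signal was set beside that of WT. The share of fl2 in the counts of these 4 models was 44.7% and 42.5% in dek A and B, against 19.01% and 23.5% in WT A and B. The exact 95% Clopper-Pearson intervals were 30.7% to 59.8% in dek A and 27.0% to 59.1% in dek B, against 18.3% to 19.7% in WT A and 22.8% to 24.2% in WT B. The dek and WT shares did not overlap, nor did these intervals. The mean share was 43.6% ± 1.55 in dek and 21.2% ± 3.15 in WT (SD, n = 2 each), and the difference of 22.4 percentage points had an exact two-sided permutation p of 0.333, the smallest that 2 against 2 libraries allow. Measured by summed FPKM, the difference was 22.7 percentage points.

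Of the other models, z1C1_4 held 40.6% and 42.5% of the counts in dek A and B, against 56.4% and 53.0% in WT A and B. z1C1_8 held 14.7% and 12.5% in dek A and B, against 16.3% and 13.4% in WT A and B, so its groups overlapped. z1C1_5 held 0% and 2.5% in dek, against 8.31% and 10.0% in WT. In dek A, 0 of 49 counts allows a z1C1_5 share of up to 7.25% by the exact interval. Expressed as the dek level in percent of WT on the TMM scale, fl2 stood at 0.539% (exact 95% counting interval 0.383% to 0.738%), z1C1_4 at 0.201% (0.142% to 0.277%) and z1C1_8 at 0.242% (0.125% to 0.423%).

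**Figure D2:**
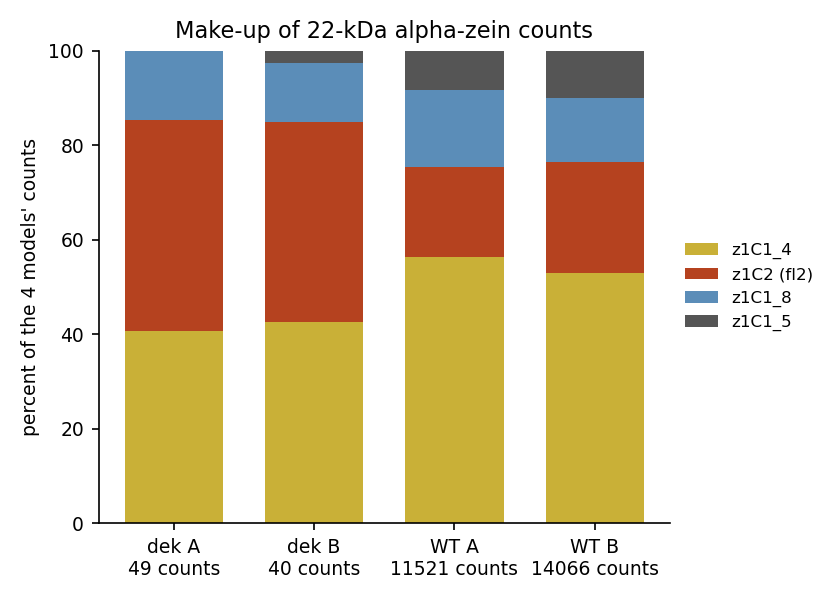
Share of the 4 models' estimated counts taken by each model (percent, stacked to 100) in dek A and B and in WT A and B, with the number of counts under each bar. The fl2 segment is 44.7% and 42.5% in dek, against 19.01% and 23.5% in WT, and the dek bars rest on 49 and 40 counts.

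Reads of near-identical copies can be divided between them, which bears on each single copy and less on their sum. Of the 7 dek values above 0 of the 4 models, 6 were whole numbers within 0.005 counts, and fl2 and z1C1_4 were whole in both dek libraries. Of the 8 WT values, 1 was whole, which was fl2 in WT B. For the other 22-kDa models, 3 of 7 dek values above 0 and 1 of 11 WT values above 0 were whole. Over all genes tested, 75.2% of dek values above 0 and 76.7% of WT values above 0 were whole. The part of read sharing in the larger fl2 share was not tested.

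Of the 6 other 22-kDa models, 4 had enough counts to be tested and all 4 were lower. These 4 met the filter through WT alone, which left little room for any other call. The model z1C1_19 (GRMZM2G160739) had 1.10 and 0.34 FPKM in dek A and B, against 254 and 383 FPKM in WT A and B. The model z1C1_7 (GRMZM2G346897), described as 22kD alpha zein 4, had 0.39 and 0.07 FPKM in dek, against 118 and 158 FPKM in WT. The pseudogene models z1C1_6 (GRMZM2G346895) and z1C1_2 (GRMZM2G388461) had at most 0.29 FPKM in dek and at least 26.5 FPKM in WT. z1C1_1 and z1C1_11 did not pass the filter, with at most 0.91 FPKM in any library and none in dek. Over all 10 models, the 22-kDa class drew 78 and 47 counts in dek A and B, against 17818 and 22414 counts in WT A and B. The 4 models described here were 63.1% and 85.1% of that sum in dek, against 64.7% and 62.8% in WT.

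Of 27 other zein models listed, 24 were tested and all 24 of these were lower, with a median log2 fold change of -8.20, against 0.01 over all genes tested. Several alpha-zeins of the 19-kDa class, such as z1A1_2 with 2 and 3 dek counts, also met the filter through WT alone. The 4 models described here had a median of -8.81, the 14 tested 19-kDa alpha-zeins of -8.60, and the 3 gamma-zeins of -5.80. The zein named by its high WT level in the 19-kDa class, z1B_6, had 13.9 and 21.8 FPKM in dek, against 3414 and 3122 FPKM in WT. The 27-kDa gamma-zein gz27, a protein of the outer layer of protein bodies, had 3153 and 5006 FPKM in dek, against 15549 and 14900 FPKM in WT. The beta-zein bz15 had 25.0 and 259 FPKM in dek, against 11710 and 10014 FPKM in WT, and the methionine-rich delta-zein dzs10 had 282 and 641 FPKM in dek, against 11280 and 9936 FPKM in WT. The 22-kDa class thus made up 0.0998% and 0.0368% of all zein counts in dek A and B, against 1.93% and 2.85% in WT A and B.

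**Figure D3:**
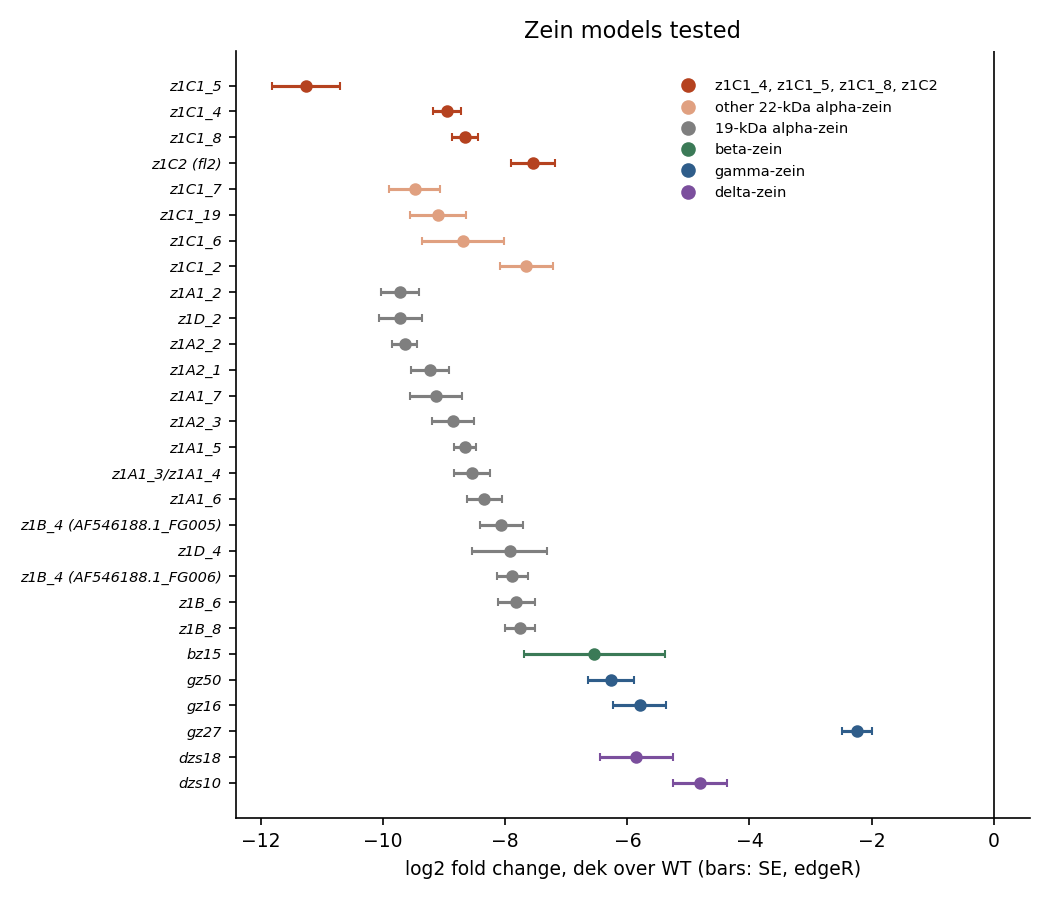
Log2 fold change of each tested zein model, dek over WT, from edgeR, with bars of 1 SE. These bars come from edgeR's F statistic and can be shorter than counting error at few dek counts. The 8 alpha-zeins of the 22-kDa class lie with the 19-kDa class between about -7.5 and -11.3. fl2 has the smallest fall of the 8 at -7.54 ± 0.356 (SE), close to z1C1_2 at -7.65 ± 0.436 (SE). gz27 at -2.24 has the smallest fall of all. The value of z1C1_5 rests on 1 dek count and is a fitted value.

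The pools of each genotype were also set beside each other. In dek, the 3 models with a value in both pools were lower in pool B than in pool A, with ratios of B over A of 0.711 for z1C1_8, 0.778 for fl2 and 0.853 for z1C1_4. At 49 and 40 counts in dek A and B, the difference of the 4 models described here was within counting error. The ratio of their summed counts, each scaled to its library total, was 0.820 (exact 95% counting interval 0.526 to 1.27). The other 4 tested 22-kDa models were also lower in dek B, with FPKM ratios of 0 to 0.309 on few counts. No such interval was computed for the whole 22-kDa class, which drew 78 and 47 counts in dek A and B. The beta-, gamma- and delta-zeins were all higher in dek B, by 1.59-fold for gz27 to 10.4-fold for bz15. Of the 14 19-kDa models, 8 were higher in dek B.

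In WT, all 4 models were higher in pool B than in pool A, with FPKM ratios of B over A of 1.12 for z1C1_8, 1.27 for z1C1_4, 1.64 for z1C1_5 and 1.67 for fl2. The other 4 tested 22-kDa models were also higher in WT B, with ratios of 1.34 to 1.85. Of the 14 19-kDa models with at least 100 WT counts, 11 were higher in WT B, while bz15, gz27 and both delta-zeins were lower there, with ratios of 0.829 to 0.958. The summed counts of the 4 models, scaled to the library total, were 1.36-fold higher in WT B than in WT A (exact 95% counting interval 1.32 to 1.39). Since the labels do not say which pools shared an ear, these values are descriptions of single pools.

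**Figure D4:**
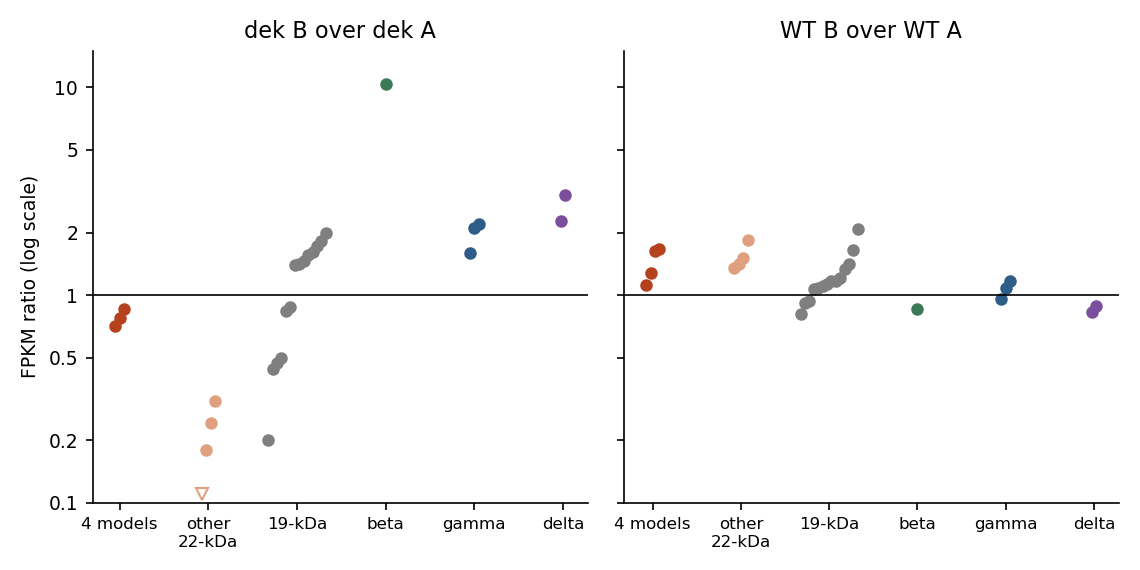
FPKM ratio of pool B over pool A (log axis) for zein models with at least 100 WT counts in total, for dek in the left panel and WT in the right panel, by zein class. The 22-kDa models with a value in dek A sit below 1 in dek, and all 8 sit above 1 in WT, while the beta-zein sits at 10.4 in dek and 0.855 in WT. The open triangle marks z1C1_6, which was listed at 0 in dek B, and dek ratios of alpha-zeins rest on few counts.

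Among regulators known to act on zein genes, 4 of 7 tested were lower in dek and 0 higher by edgeR, against 8.85% and 7.98% of all genes tested, with a median log2 fold change of -0.84. DESeq2's Wald test also called 4 lower and 0 higher, as did edgeR at an unadjusted p under 0.05. Opaque2 (o2, GRMZM2G015534) had 60.2 and 34.7 FPKM in dek A and B, against 87.4 and 203 FPKM in WT A and B. Its groups did not overlap, and the value was lower in dek B than in dek A and higher in WT B than in WT A. o2 fell by 1.91 ± 0.44 on the log2 scale (± SE, n = 2 per genotype, adjusted p = 0.0384 by edgeR with Benjamini-Hochberg adjustment). The edgeR call was lost without dek A (-2.36) and without dek B (-1.59). In edgeR it was also lost with total-count scaling (-1.60, adjusted p = 0.0505) and with a replicate block by title letter (-1.84, adjusted p = 0.0964). In limma o2 did not pass on log2(FPKM + 1) (-1.52, adjusted p = 0.0550) or on log2(FPKM + 0.1) (-1.54, adjusted p = 0.0605). The o2 log2 fold change was -1.20 without WT B and -2.40 without WT A. The log2 fold changes of the 4 models were -7.54 or lower.

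Prolamin-box binding factor (pbf1, GRMZM2G146283), a Dof factor that binds zein promoters with Opaque2, had 18.8 and 19.5 FPKM in dek, against 72.8 and 77.7 FPKM in WT. Its dek and WT levels did not overlap, and pbf1 fell by 2.27 ± 0.123 on the log2 scale (± SE, n = 2 per genotype; adjusted p = 0.00134 by edgeR with Benjamini-Hochberg adjustment). The NAKED ENDOSPERM gene nkd1 (GRMZM2G129261), which encodes a zinc finger regulator of endosperm cell fate, had 114 and 79.9 FPKM in dek, against 162 and 248 FPKM in WT, and passed as lower. Its paralog nkd2 (GRMZM5G884137) had 51.0 and 43.5 FPKM in dek, against 60.6 and 76.8 FPKM in WT, and passed as lower. Leaving out either dek library or fitting the replicate block ended both calls. Leaving out WT B, scaling to total counts or using limma at either pseudocount ended that of nkd2. With either dek library left out, pbf1 was the 1 regulator of 7 that passed.

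The Opaque2 heterodimerizing proteins ohp1 and ohp2, bZIP partners of Opaque2, did not pass. ohp1 (GRMZM2G016150) had 24.5 and 19.4 FPKM in dek, against 20.4 and 20.5 FPKM in WT, and ohp2 (GRMZM2G007063) had 17.8 and 15.4 FPKM in dek, against 13.9 and 16.3 FPKM in WT. The dek and WT values of both genes overlapped. The MADS-box gene mads47 (GRMZM2G099577), whose product acts with Opaque2 on zein promoters, had 3.74 and 4.31 FPKM in dek, against 1.93 and 2.83 FPKM in WT, and did not pass.

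**Figure D5:**
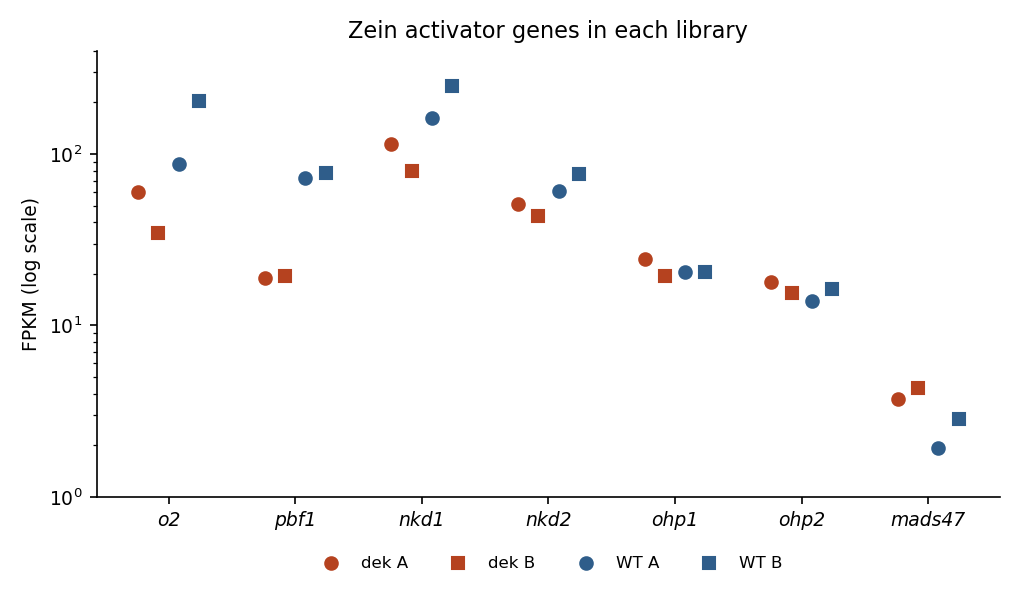
Level of 7 regulators of zein genes (FPKM, log axis) in dek A and B and in WT A and B. pbf1 has the widest gap, with 18.8 and 19.5 FPKM in dek, against 72.8 and 77.7 FPKM in WT, while ohp1 and ohp2 overlap between the genotypes.

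A list of 28 tested genes joined named protein body genes with general folding genes. The latter were taken by name or description as protein disulfide isomerases, calreticulins, calnexins, endoplasmin or bip genes. Whether each of them acts on zeins was not tested. Of the 28, 6 were lower and 1 was higher, against 8.85% and 7.98% of all genes tested, with a median log2 fold change of -0.08. Leaving out either dek library left 2 lower and 0 higher in edgeR, where 1 was higher at an unadjusted p under 0.05 without dek A and 4 without dek B. DESeq2 on all 4 libraries called 7 lower and 1 higher. Floury1 (fl1, GRMZM2G094532), a membrane protein of the protein body that helps place 22-kDa alpha-zein, had 8.48 and 12.4 FPKM in dek, against 20.9 and 19.9 FPKM in WT, and passed as lower. Opaque10 (o10, GRMZM2G346263), a protein body component needed for the ring-like placing of 22-kDa zein, had 5.69 and 6.12 FPKM in dek, against 18.4 and 17.0 FPKM in WT, and passed as lower. Both were named after their values were seen. A protein disulfide isomerase gene (GRMZM2G091481), which forms disulfide bonds in the endoplasmic reticulum, had 1116 and 893 FPKM in dek, against 1610 and 1338 FPKM in WT. Its call as lower was lost without WT A, without dek B, with total-count scaling and in limma at either pseudocount. Calreticulin 2 (GRMZM2G358059), a lectin chaperone, was the single higher gene, with 310 and 242 FPKM in dek, against 110 and 149 FPKM in WT. Its call was lost without dek A, without dek B, without WT A and with the replicate block. The chaperone gene bip1 (GRMZM2G114793) had 162 and 70.1 FPKM in dek, against 80.1 and 192 FPKM in WT, with overlapping groups and no call. A calnexin gene (GRMZM2G134668) had 144 and 84.8 FPKM in dek, against 75.3 and 114 FPKM in WT, and did not pass.

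Markers of other endosperm domains were summed beside the zeins. The 9 basal transfer layer markers summed to 5956 and 3971 FPKM in dek A and B, against 2109 and 578 FPKM in WT A and B, and 2 of the 9 passed as higher, against 7.98% of all genes tested. None was at 0 in any library. The 4 genes taken as aleurone markers, sal1, pac1, cr4 and dek1, summed to 224 and 242 FPKM in dek, against 195 and 198 FPKM in WT. Of the 4, 0 passed in edgeR, at an unadjusted p under 0.05 included, and 0 in DESeq2. al9, also searched for, matched no listed gene. Whether this sum follows the amount of aleurone was not tested. Of the 2 embryo markers tested, the oleosin gene ole1, which aleurone also expresses, was lower. The part of a changed mix of cell types in the fall of the 22-kDa genes was not tested.

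The profile of the 4 models over the 4 libraries was compared with those of 24 other zeins and of 8808 genes outside the zeins, all tested and with an average of at least 10 FPKM in WT. Likeness was the root mean square difference of centred log2(FPKM + 1) values, which was 0.199 to 0.545 between each of the 4 models and their mean and 3.44 for the median gene outside the zeins. The pseudocount of 1 is near or above the dek levels of the 4 models, so differences between low dek levels count little in this measure. The nearest profiles were those of other alpha-zeins, with differences of 0.0782 for z1A1_2 of the 19-kDa class, 0.114 for z1C1_7 and 0.245 for z1A1_7 of the 19-kDa class. These 3 lay nearer than any gene outside the zeins. The 22-kDa models z1C1_19, z1C1_6 and z1C1_2 lay farther, at 0.453, 0.839 and 0.974. Outside the zeins the nearest gene, GRMZM2G322819, with a difference of 0.25, is described as a hypothetical protein and had 0.09 and 0.2 FPKM in dek A and B, against 70.4 and 149 FPKM in WT A and B. Next came the antimicrobial peptide gene MBP-1 (GRMZM2G325118), at 0.259, with 0.04 FPKM in dek A and none listed in dek B, against 60.2 and 94.2 FPKM in WT. GRMZM2G064382, at 0.279, had 1.67 and 0.95 FPKM in dek, against 150 and 196 FPKM in WT. AF546188.1_FG002 and GRMZM5G805389, at 0.442 and 0.511, had at most 1.35 FPKM in dek and at least 80.9 FPKM in WT. All 5 genes outside the zeins were higher in WT B than in WT A. They were chosen by this pattern, so their values are a description.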

How the data were processed

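For each library the authors deposited gene lengths, expected counts and FPKM values. Expected counts are estimates as deposited by the authors, in which reads of similar copies can be divided between genes. The deposited FPKM values are relative to gene length and to the library's counted fragments, per the file headers. The submitters' processing notes name HISAT, Bowtie2, RSEM and GATK with no version or role. Genome build: not given in the sources used here. RNA was extracted with CTAB, per the labels' protocols. A gene that a table does not list was taken as 0.

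Rounded estimated counts were tested with edgeR 4.0.16 in R 4.3.3 (quasi-likelihood test, TMM factors of 1.13 and 1.10 for dek A and B and of 0.895 and 0.903 for WT A and B, filterByExpr), two-sided, with Benjamini-Hochberg adjustment over 24624 genes and a threshold of 0.05. The p-values set the genotype difference against a spread between pools that edgeR moderates over all genes. Whether the pools are independent is not known, since the labels do not say which shared an ear. The method was tested on simulated data. Counting intervals are exact at 95%, from scipy 1.17.1. Names came from RefSeq by model identifier, or by protein accession where no identifier matched. Of the regulators searched for, o11, nac128, nac130, bzip22 and gzf1 matched no listed gene.

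The models and lists were chosen with earlier results of these data known. Named genes were the 4 models, every regulator, other tested 22-kDa models, the zein of highest WT level in each other class, the 4 most abundant folding genes and the 5 nearest profiles outside the zeins; z1A1_2 and z1A1_7 were named after their values were seen. Alternatives were DESeq2 1.42.0 size factors and Wald test, upper-quartile factors, total counts alone, limma 3.58.1 on log2(FPKM + 1) or log2(FPKM + 0.1), no filter, 50 counts in 2 libraries, zeins left out of the TMM factors, a replicate block and leaving out each library.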

Additional observations from a re-analysis of the deposited data

How the results depend on the processing

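All 4 of the 22-kDa models stayed lower and past the threshold in each of 14 alternative fits, with a largest Benjamini-Hochberg adjusted p of 0.00815 over edgeR, DESeq2 and limma. Fitted log2 fold changes ranged from -7.87 to -6.38 for fl2, from -9.12 to -7.81 for z1C1_4, from -8.90 to -6.34 for z1C1_8 and from -13.4 to -6.38 for z1C1_5, with the smallest sizes at a pseudocount of 1, which is near or above the dek levels. The 24 other tested zeins stayed lower in each fit without 1 library. The fl2 share difference was 20.1 to 24.6 percentage points without 1 library.

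Genes called higher and lower were 4502 and 1279 with total counts alone, 4483 and 1326 with limma at a pseudocount of 1, and 4145 and 1260 at a pseudocount of 0.1. Without 1 library they ranged from 281 to 1731 higher and from 465 to 1966 lower. Lower regulators of zein genes numbered 2 with total counts alone and with limma at either pseudocount, and 1 to 4 without 1 library. Lower folding and protein body genes numbered 3 with total counts alone, 2 with limma at either pseudocount and 2 to 6 without 1 library, and higher ones 2 with total counts alone, 2 with limma at a pseudocount of 1, and 0 to 1 without 1 library. The cause was not tested.

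The replicate block by title letter gave 811 higher and 1080 lower genes, 1 lower regulator and 0 higher folding genes. Libraries with the same letter did not deviate together (r = -0.02 over genes), and the labels do not say what the letter marks. The 4 models passed under the block too.

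With total counts alone and limma at a pseudocount of 1 and 0.1, the log2 fold changes turned positive for ohp2 (0.14, 0.13 and 0.14), ohp1 (0.11, 0.0876 and 0.0909) and calnexin (0.28, 0.25 and 0.25). Calnexin was also positive with upper-quartile factors (0.0031), without WT B (0.28) and without dek B (0.27), and bip1 without WT B (0.21), none past the threshold. Over the fits without 1 library, calnexin ranged from -0.45 to 0.28 and bip1 from -1.24 to 0.21.

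Depth limits the dek values, where 1 to 22 counts lie behind each listed model.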

Other observations

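The deposited annotation of z1C1_4 pairs its 22-kDa zein description with the KEGG term for an auxin response factor, which its other annotation, nutrient reservoir activity, does not share. Of the values above 0, whole numbers were 10 of 28 in dek and 8 of 30 in WT for the 19-kDa models, while for the beta-, gamma- and delta-zeins they were 12 of 12 in dek and 10 of 12 in WT.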
